A study of Mus musculus with 20 samples.

Results

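In replicate 3 of a study of RAW264.7 cells, 679 of 15199 stretches of chromatin had a called peak without the inhibitor I-BET, with and without RANKL. They had no called peak in either culture that received I-BET, which does not by itself show a loss of the mark. The mark was acetylation of histone H3 at lysine 27 (H3K27ac), mapped by chromatin immunoprecipitation and sequencing. RAW264.7 is a mouse macrophage line, labelled as monocyte-derived, with bone marrow as its source. The 4 conditions of replicate 3 were RANKL at 50 ng/ml with I-BET at 500 nM, I-BET alone at 500 nM, RANKL alone at 50 ng/ml, and no treatment. The treatments lasted 4 h, and the labels give no time for untreated cells. RANKL+I-BET, RANKL and untreated cells also had a replicate 1 and a replicate 2, while I-BET alone had replicate 3 only. All cultures are of a single cell line, and the labels do not say whether the replicates were separate cultures. The 10 input libraries were not analysed here.

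The regions were chosen by the deposited peak lists of replicate 3. A consensus region was a stretch covered by peaks of at least 2 of its 4 lists, and a list held a region if 1 of its peaks overlapped it. The 679 regions were those held by the RANKL and untreated lists and by neither the RANKL+I-BET list nor the I-BET list. They are called here the I-BET-absent regions, a name for the lists' content in replicate 3, where each condition had 1 library. They made up 4.47% of the consensus regions. The reverse pattern, held by the RANKL+I-BET and I-BET lists and by neither of the others, had 162 regions or 1.07%. Both counts follow from the choice and carry no test.

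H3K27ac marks active promoters and enhancers and is written by the acetyltransferases p300 and CBP. The BET proteins bind acetylated histones through bromodomains and bring the elongation factor P-TEFb to genes, and I-BET compounds block that binding. BET inhibitors act on the readers of acetylation, not on the enzymes that write it. RANKL, a cytokine of the tumour necrosis factor family, binds its receptor RANK on macrophages and, through NF-kB and NFATc1, drives them towards osteoclasts, the cells that resorb bone.

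The promoters of 4 genes show how the regions lie against start sites. Hes6 encodes a basic helix-loop-helix factor of the HES family, and Eif2b2 encodes a subunit of the exchange factor of translation initiation factor eIF2. Both belong to the 10 strongest I-BET-absent regions. Pias3 encodes a SUMO ligase that inhibits STAT3, and its region had the same pattern in replicate 1. Zfp81 encodes a zinc finger protein, and its region alone had the pattern in all 3 replicates. It was picked for that after its values were seen. Sequences are RefSeq, build GRCm38.p6, 250 bases before to 50 after the start site, 5′ to 3′ along the gene. Capitals mark bases inside the I-BET-absent region.
Hes6 (chr1:91413173-91413472, minus strand): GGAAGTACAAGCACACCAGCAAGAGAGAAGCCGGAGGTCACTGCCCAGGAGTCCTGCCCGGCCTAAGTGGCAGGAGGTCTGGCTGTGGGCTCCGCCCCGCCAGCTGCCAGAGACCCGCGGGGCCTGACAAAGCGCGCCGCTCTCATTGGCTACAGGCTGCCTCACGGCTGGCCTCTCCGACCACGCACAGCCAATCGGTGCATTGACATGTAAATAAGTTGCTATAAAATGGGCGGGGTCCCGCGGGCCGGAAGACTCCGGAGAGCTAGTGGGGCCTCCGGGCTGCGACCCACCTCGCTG
Pias3 (chr3:96696826-96697125, plus strand): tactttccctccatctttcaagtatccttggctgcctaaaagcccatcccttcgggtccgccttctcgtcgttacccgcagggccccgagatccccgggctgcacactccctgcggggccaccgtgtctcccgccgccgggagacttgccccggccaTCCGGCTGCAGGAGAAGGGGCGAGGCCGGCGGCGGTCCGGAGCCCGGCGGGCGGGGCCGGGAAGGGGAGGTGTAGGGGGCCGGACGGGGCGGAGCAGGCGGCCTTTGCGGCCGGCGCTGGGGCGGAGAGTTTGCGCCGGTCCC
Zfp81 (chr17:33358829-33359128, minus strand): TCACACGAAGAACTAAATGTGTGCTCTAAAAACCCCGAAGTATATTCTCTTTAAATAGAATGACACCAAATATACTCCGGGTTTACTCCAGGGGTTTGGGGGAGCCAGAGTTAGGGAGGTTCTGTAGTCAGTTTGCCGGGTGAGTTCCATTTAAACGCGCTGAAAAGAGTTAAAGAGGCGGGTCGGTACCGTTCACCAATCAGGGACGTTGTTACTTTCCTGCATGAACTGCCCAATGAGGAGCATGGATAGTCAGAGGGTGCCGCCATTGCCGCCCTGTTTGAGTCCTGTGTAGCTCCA
Eif2b2 (chr12:85219231-85219530, plus strand): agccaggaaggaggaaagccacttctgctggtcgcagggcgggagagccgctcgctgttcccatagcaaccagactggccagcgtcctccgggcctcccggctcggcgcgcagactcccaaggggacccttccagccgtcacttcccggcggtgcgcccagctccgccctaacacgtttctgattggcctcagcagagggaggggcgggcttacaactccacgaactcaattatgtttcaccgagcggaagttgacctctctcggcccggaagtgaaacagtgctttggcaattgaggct

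The Hes6 region, chr1:91412953-91413596, covered all 300 bases of its promoter window. The Zfp81 region, chr17:33358626-33359180, did so too. The Pias3 region, chr3:96696983-96697402, covered the last 143 bases, from position 158 of the window. The Eif2b2 region, chr12:85219567-85220096, began 86 bp past the start site and covered none. The GC content was 65% for Hes6, 72.7% for Pias3, 48.7% for Zfp81 and 62.7% for Eif2b2. The Hes6 and Pias3 windows held the GC box GGGCGGGG, bound by SP and KLF factors. The Hes6, Zfp81 and Eif2b2 windows held CCAAT, the box of NF-Y.

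Over all genes, 160 promoter windows overlapped an I-BET-absent region. Their median GC content was 62.2%, against 62.3% for the 7448 windows that overlapped a region held by all 4 lists and 52.7% for all 32851 windows. The median number of CG pairs was 22, against 24 and 7. These promoters thus had the base composition of CpG-rich promoters, as those held by all 4 lists did. The GC box, searched on both strands as all motifs were, stood in 33.1% of the 160 windows, against 32.6% and 17.6%. CCAAT stood in 39.4%, against 35.4% and 37.4%. The E-box CACGTG of MYC and MAX stood in 10% of them, against 11.3% and 7.15%, and it overlaps the longer MiT E-box. The AP-1 site TGANTCA, bound by FOS and JUN, stood in 3.13%, against 4.66% and 7.81%. These shares are descriptions, and a match is not evidence of binding.

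The lists of replicate 3 were of like size except for RANKL. They held 13613 peaks over 20.6 Mb with RANKL+I-BET, 13368 over 19.6 Mb with I-BET, 16917 over 25.9 Mb with RANKL and 13677 over 19.5 Mb without treatment. At the gene ends (1 kb) of 7 myeloid marker genes, peaks stood at 6 with RANKL+I-BET, 7 with I-BET, 7 with RANKL and 6 in untreated cells. Adgre1, which encodes the macrophage antigen F4/80, was the missing gene in both lists with 6. Among the other lists, RANKL 2 stood apart with 141905 peaks over 184.6 Mb. It held 13 of 14 lymphocyte marker genes, 7 of 14 of fibroblasts and osteoblasts, and 14 of 18 of tissues absent from the culture, where every other list held at most 1, 0 and 0. RANKL+I-BET 2 was the shortest, with 6041 peaks over 3.44 Mb. It also lacked weak peaks. The lowest -log10 q of a peak was 2.00 in it, against 0.319 to 0.655 in the other lists. The lists hold no read counts, so sequencing depth is unknown.

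The I-BET-absent regions were narrow. Their median width was 363 bp, with quartiles of 266 and 559.5 bp and a range of 2 to 1855 bp. Over all consensus regions the median was 1167 bp, and for the 10745 regions held by all 4 lists it was 1476 bp. Of the 679 regions, 604 (89.0%) were under 800 bp, against 30.4% of all regions. A region held by exactly 2 lists is only as wide as the overlap of 2 peaks, and the reverse pattern had a like median of 359.5 bp. The whole peaks that overlapped them were also narrower than usual. Their median was 712 bp with RANKL and 495 bp in untreated cells, against 1303 and 1105 bp over all regions. I-BET-absent regions made up 20.1% of regions under 200 bp, 25.3% from 200 to 400 bp, 7.16% from 400 to 800 bp, 1.22% from 800 to 1600 bp and 0.103% of wider ones.

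**Figure D1:**
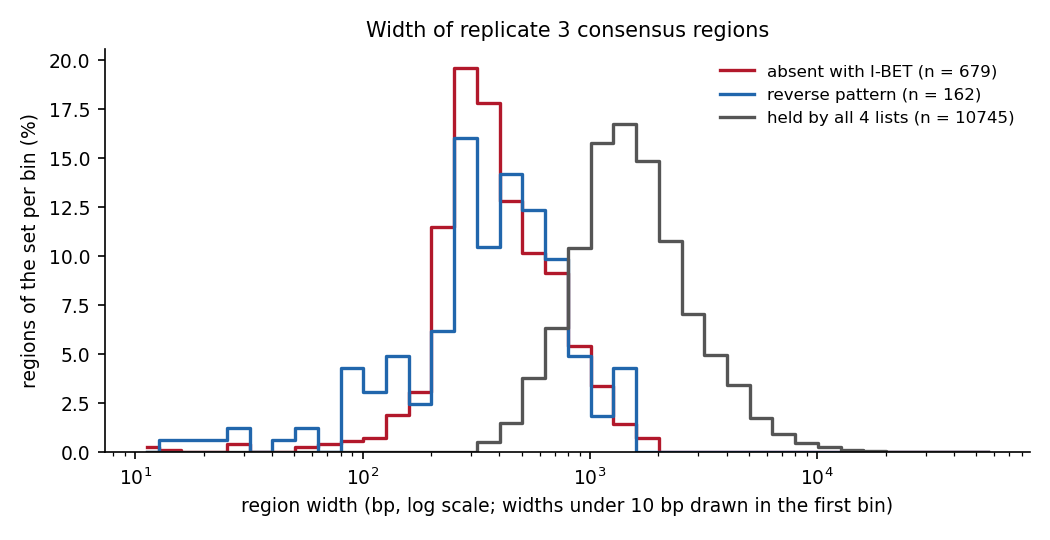
Width of consensus regions of replicate 3 on a log axis, as the percent of each set per bin, for the 679 I-BET-absent regions, the 162 of the reverse pattern and the 10745 held by all 4 lists. The first 2 curves lie together, with medians of 363 and 359.5 bp, left of the curve of regions held by all 4 lists, with a median of 1476 bp.

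Their peaks were of ordinary strength for their lists. Fold enrichment is the authors' linear ratio of signal over local background, a value of the peak and not of the region. Its median was 2.44 with RANKL (range 1.01 to 8.03) and 2.36 in untreated cells (range 1.07 to 7.01). Over all regions the medians were 2.55 and 2.41. The median -log10 p was 4.60 with RANKL and 4.25 in untreated cells, against 5.09 and 4.41 over all regions. In the RANKL list 44.9% of peaks had a fold below the regions' median, and in the untreated list 46.3% did. These values come from the lists that chose the regions and carry no test.

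**Figure D2:**
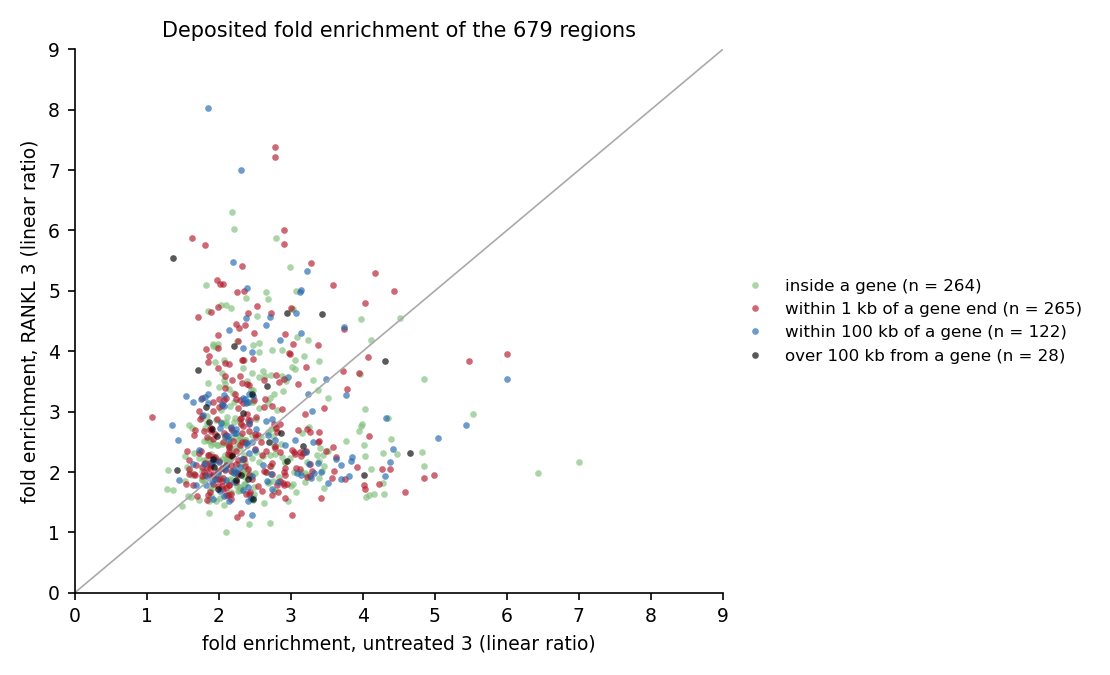
Fold enrichment of the peak over each of the 679 I-BET-absent regions, RANKL 3 against untreated 3, on linear axes, coloured by the region's place relative to genes, with the line of equal values. Most points lie near the medians of 2.44 and 2.36, and the 4 places overlap.

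Most of the regions stood far from any peak of the I-BET cultures. In all, 622 of the 679 lay more than 1 kb from any peak of the RANKL+I-BET and I-BET lists, and 57 lay within 1 kb of one. Within 5 kb the count was 183. The median gap was 19.5 kb to the nearest RANKL+I-BET peak and 19.8 kb to the nearest I-BET peak. By chromosome, the share of consensus regions with the pattern ran from 3.37% on chromosome 5 to 6.11% on chromosome 18. Chromosome Y had 1 of 7.

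The regions fell about equally at gene ends and inside genes. Of 679, 265 (39.0%) lay within 1 kb of an end of a protein-coding gene, 264 (38.9%) inside a gene, 122 (18.0%) within 100 kb of one and 28 (4.12%) farther off. Over all regions those shares were 49.5%, 31.0%, 16.9% and 2.48%. The reverse pattern had 13 regions (8.02%) at gene ends and 97 (59.9%) inside genes. The annotation used gives gene bodies without exons, so exonic and intronic positions were not assigned. Of the 655 I-BET-absent regions on chromosomes with start sites in the table used, 247 (37.7%) lay within 1 kb of one, against 47.9% of all regions and 15 of 157 (9.55%) of the reverse pattern. The I-BET-absent regions thus lay near start sites less often than regions at large and more often than the reverse pattern. Regions that only the RANKL+I-BET list lacked stood at a like 38.6%, and those that only the I-BET list lacked at 52.2%.

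Near start sites most of the regions lay downstream. Of the 247, 141 (57.1%) began after the start site, 82 (33.2%) covered it and 24 (9.72%) lay upstream. Of the 5655 regions near a start site that all 4 lists held, 12.04% lay downstream, 86.2% covered it and 1.79% lay upstream. In the reverse pattern 8 of 15 (53.3%) lay downstream and 6 (40%) upstream, which is nearly even. Downstream lay 44.1% of the 211 that only the RANKL+I-BET list lacked, with 6.64% upstream. Of the 529 that only the I-BET list lacked, 38.0% lay downstream and 5.29% upstream. The lean was thus shared with regions that a single I-BET list lacked, and was not clear in the few regions of the reverse pattern. Narrow regions cover a given base less often, so the share that covers a start site moves with width. The median centre was 207.5 bp past the start site, against 177.5 bp for those held by all 4 lists. The bin from 200 to 400 bp held 107 of the 247, or 43.3%, against 21.5% of those held by all 4.

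**Figure D3:**
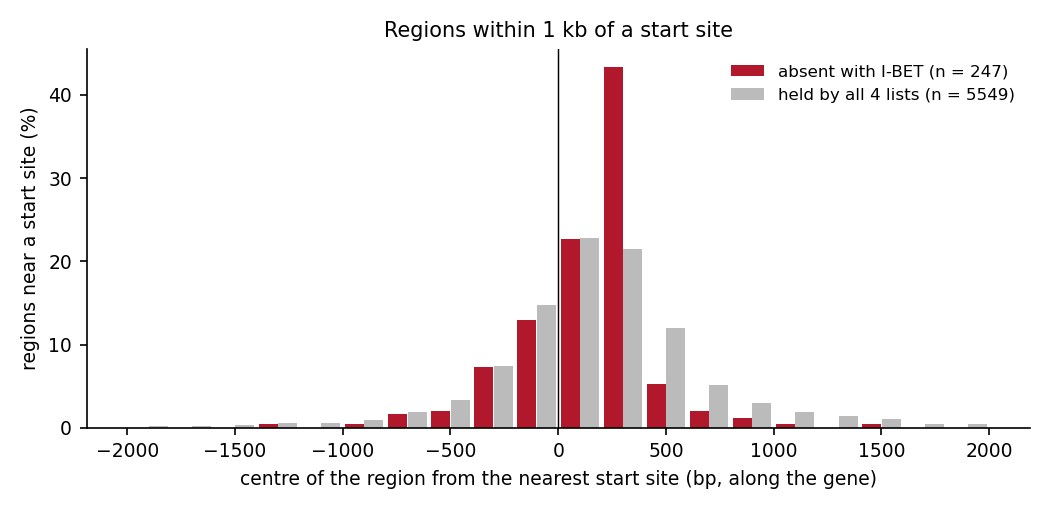
Centre of each region within 1 kb of a start site, in bins of 200 bp along the gene, as percent of the set, for the 247 I-BET-absent regions and 5549 regions held by all 4 lists whose centre lies within the axis. The bin from 200 to 400 bp past the start site holds 43.3% of the I-BET-absent regions and 21.5% of those held by all 4 lists.

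Counted by gene instead of by region, 281 genes (1.04% of 27025) had a peak within 1 kb of a start site with RANKL and in untreated cells and none in either I-BET culture. The reverse held for 14 genes. The RANKL and untreated lists shared start-site peaks at 7992 genes. The 281 included several regulators that were named after their values were seen. Cry2 encodes a repressor of the circadian clock, Tef and Nfil3 encode basic leucine zipper factors of clock output, and Klf2 encodes a zinc finger factor that restrains macrophage activation. Abca1 exports cholesterol from macrophages, and Hmgcs1 makes a precursor of cholesterol. Vegfa, which encodes the angiogenic growth factor, was the single gene of the inflammatory list among them. In replicate 1, the RANKL+I-BET list held a start-site peak at 228 of the 281 genes, the RANKL list at 220 and the untreated list at 92 (81.1%, 78.3% and 32.7%). Of the 7992 genes they held 98.5%, 98.1% and 80.1%. In replicate 2 the counts out of 281 were 22 with RANKL+I-BET, 275 with RANKL and 71 in untreated cells (7.83%, 97.9% and 25.3%), against 45.7%, 99.3% and 68.3% of the 7992 genes. Cry2, Tef, Nfil3, Klf2, Abca1, Hmgcs1 and Vegfa were among those held with RANKL+I-BET in replicate 1.

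Replicate 1 is the first set of lists that played no part in the choice. There the RANKL+I-BET list held 442 of the 679 regions (65.1%), the RANKL list 448 (66.0%) and the untreated list 239 (35.2%). So the I-BET-absent regions were found about as often with RANKL+I-BET as with RANKL alone. In a setting chosen after seeing the data, the lists of each replicate were cut to one covered length. The choice made anew then gave 519 of 14338 regions. Of those 519 the cut lists of replicate 1 held 41.4%, 38.2% and 38.5%, against 62.0%, 59.4% and 75.6% of all regions. The share in untreated cells was then no lower than with RANKL, but of the 3 it stood furthest below that of all regions. Uncut, the 3 lists of replicate 1 held 92.1%, 91.2% and 74.1% of all consensus regions. Of the reverse pattern they held 64.8%, 53.7% and 44.4%. Both sets of narrow regions were thus found less often than regions at large, and the part of width in this was not tested. For I-BET-absent regions chosen anew at a -log10 q of at least 5, the gap was small. The shares there were 27.9%, 29.5% and 2.78%, against 31.5%, 33.4% and 3.30% of all regions. The RANKL+I-BET and RANKL lists of replicate 1 had like sizes, with 17643 peaks over 23.0 Mb and 17794 over 23.7 Mb, and the untreated list had 16364 over 16.1 Mb.

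**Figure D4:**
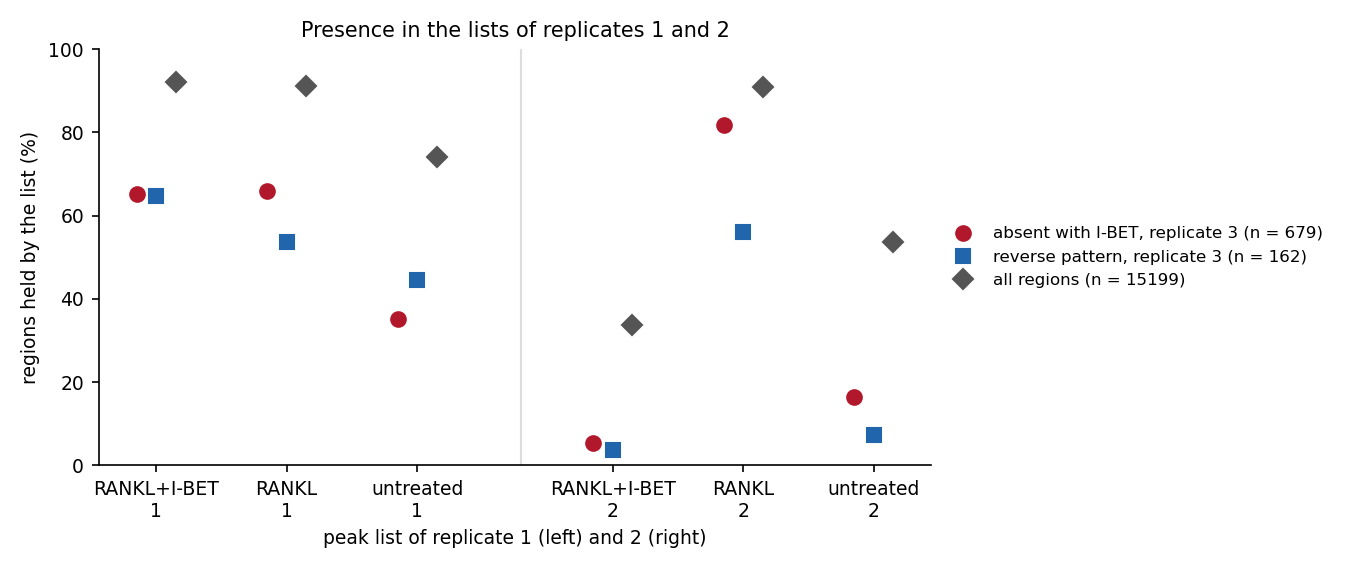
Percent of regions that each list of replicates 1 and 2 holds, for the 679 I-BET-absent regions, the 162 of the reverse pattern and all 15199 consensus regions of replicate 3. In replicate 1 the I-BET-absent regions stand at 65.1% with RANKL+I-BET and 66.0% with RANKL. In replicate 2 they stand at 5.45% and 81.7%, where RANKL+I-BET is the shortest list and RANKL the longest.

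The pattern itself recurred in replicate 1 for 21 of the 679 regions (3.09%), held with RANKL and without treatment and not with RANKL+I-BET. It was seen at 1.05% of all regions and at 8 of the 162 regions of the reverse pattern (4.94%). The order against all regions turned with the setting. With lists of a replicate cut to one covered length and the regions chosen anew, it was 7.51% of the I-BET-absent regions, against 14.2% of all. With regions chosen anew at a -log10 q of at least 5 it was 0.439%, against 0.816%. The opposite in replicate 1, held with RANKL+I-BET alone, was seen at 54 of the 679 (7.95%), against 2.55% of all regions. All 3 lists of replicate 1 held 173 of the 679 (25.5%, against 70.6% of all regions), and none held 132 (19.4%, against 3.83%). Every kind of disagreement between lists of replicate 1 was thus more frequent here than in regions at large. Set against RANKL alone, 77 regions were held with RANKL+I-BET only (11.3%, against 4.18% of all regions). With RANKL only there were 83 (12.2%, against 3.22%), and with both 365 (53.8%, against 87.9%). Over those 365 the median covered length was 305 bp with RANKL+I-BET and 300 bp with RANKL. It was lower with RANKL+I-BET at 144, higher at 128 and equal at 93. Over the 13366 regions of all kinds held by both, the medians were 1056 and 1038 bp, and it was lower with RANKL+I-BET at 5615, higher at 6144 and equal at 1607. No test was made of these counts, which share regions and libraries.

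The 3 lists of replicate 2 differ most in size, and presence in them followed size. RANKL+I-BET 2 was also the list without weak peaks, with a lowest -log10 q of 2.00. RANKL+I-BET 2 held 37 of the 679 regions (5.45%), RANKL 2 held 555 (81.7%) and untreated 2 held 112 (16.5%). Over all regions these were 33.7%, 91.0% and 53.7%. The pattern was seen at 95 of the 679 (14.0%), less than the 23.7% of all regions. In both replicate 1 and replicate 2 it was seen at 1 of the 679, that of Zfp81 (0.147%, against 0.0592% of all regions). A single region does not set the 679 apart. No list of either replicate held 39 of the 679 (5.74%, against 1.37% of all regions).

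Presence in the RANKL+I-BET and RANKL lists of replicate 1 varied with place, as it did for all regions. At gene ends the RANKL+I-BET list held 82.3% of the I-BET-absent regions, the RANKL list 77.0% and the untreated list 33.2%, against 97.6%, 96.8% and 76.8% of all regions there. Inside genes they held 55.3%, 58.0% and 36.4%, against 86.4%, 85.1% and 70.6%. Within 100 kb of a gene they held 52.5%, 59.8% and 36.9%, against 87.9%, 86.7% and 73.3%. Of the 28 farther off they held 50%, 64.3% and 35.7%, against 82.8%, 84.1% and 69.0%. The 2 RANKL cultures thus held gene ends most often, for the I-BET-absent regions and for all regions. The untreated list held all regions most often there and the I-BET-absent regions least often. For the I-BET-absent regions, the share with RANKL+I-BET was above that with RANKL at gene ends and below it elsewhere. These differences were not tested.

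Covered length was then compared across replicates 1 and 2 by limma, with RANKL+I-BET set against the mean of RANKL and untreated cells (2, 2 and 2 lists). Of the 14446 regions tested, 0 (0%) passed an adjusted p of 0.05, and the smallest adjusted p was 1. At an unadjusted p under 0.05 there were 105, of which 102 were lower with RANKL+I-BET (0.706% of those tested). Of the 679 regions, 521 were covered in at least 2 of the 6 lists and tested, and 158 were not. The unadjusted threshold was passed by 14 of the 521 in the lower direction (2.69%). The median log2 difference over the 521 was -0.21, and over all regions tested it was -0.37. The order of these medians turned when the untransformed share of the region covered was used, with -0.14 for the 521 and -0.13 for all regions. With the lists at one covered length both were above 0, at 0.15 for the 42 I-BET-absent regions still tested and 0.29 for all.

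The comparison also turned on which list was left out. Without RANKL+I-BET 1, limma called 3203 of 13951 regions (23.0%), 119 of 465 I-BET-absent ones among them (25.6%), and the medians were -0.78 for those and -1.29 for all. The remaining RANKL+I-BET list was then the shortest one and lacked weak peaks, and its lone sample was assumed to vary like the other groups. Without RANKL+I-BET 2, limma called 0, and the medians were 0.39 and 0.51. The direction thus turned with the list left out and with the covered length, for the I-BET-absent regions and for all regions alike.

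Zfp81, the region seen in all 3 replicates, had no peak in any RANKL+I-BET list or in I-BET 3. Its fold was 3.68 in RANKL 1, 1.58 in RANKL 2 and 1.97 in RANKL 3. It was 2.02 in untreated 1, 2.82 in untreated 2 and 2.27 in untreated 3. All 9 values follow from the choice of a region with the pattern in every replicate and support nothing further.

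The 10 regions with the highest -log10 p in both choosing lists included 9 near a named gene. Eif2b2 had a fold of 3.95 in RANKL 3 and 6.01 in untreated 3. Outside replicate 3 it had 3.29 in RANKL+I-BET 1, 2.30 in RANKL 1, 3.51 in untreated 1, 3.66 in RANKL 2 and 2.53 in untreated 2. Only RANKL+I-BET 2 lacked it among the 6 lists outside replicate 3. Hes6 had 3.83 in RANKL 3 and 5.47 in untreated 3. It had 3.70 in RANKL+I-BET 1, 2.24 in RANKL 1 and 3.82 in RANKL 2, and was absent from both other untreated lists and from RANKL+I-BET 2. Both start-site regions were thus present with RANKL+I-BET in replicate 1.

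Hdgfl2, which encodes a chromatin protein with a PWWP domain, had 5.29 in RANKL 3 and 4.16 in untreated 3, with the region chr17:56079708-56080066. Hacd2, an enzyme of very long chain fatty acid synthesis, had 4.80 in RANKL 3 and 4.04 in untreated 3. Both regions lay just past the start site, at 77 and 119 bp. RANKL+I-BET 1 held both, with folds of 3.23 for Hdgfl2 and 3.23 for Hacd2. RANKL 1 held the Hacd2 region, at 2.10, and not the Hdgfl2 region, although it had a peak within 1 kb of the Hdgfl2 start site.

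Arhgap22, which encodes a GTPase-activating protein, had 4.99 in RANKL 3 and 4.43 in untreated 3, and 4.55 in RANKL+I-BET 1 and 7.11 in RANKL 1. The region chr14:33214904-33215213 lay inside the gene, 910 bp from an end. Zbtb16, which encodes the zinc finger repressor PLZF, and Macrod2, which encodes an ADP-ribose hydrolase, held regions deep inside the gene that RANKL+I-BET 1 and RANKL 1 both had. Tiam1, which encodes an exchange factor for Rac, and Ubn2, a partner of the histone chaperone HIRA, held regions that RANKL+I-BET 1, RANKL 1 and untreated 1 all lacked. The tenth region, on chromosome 3, lay 190209 bp from the nearest gene. Of these 10, RANKL+I-BET 1 held 8, RANKL 1 held 7 and untreated 1 held 2.

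**Figure D5:**
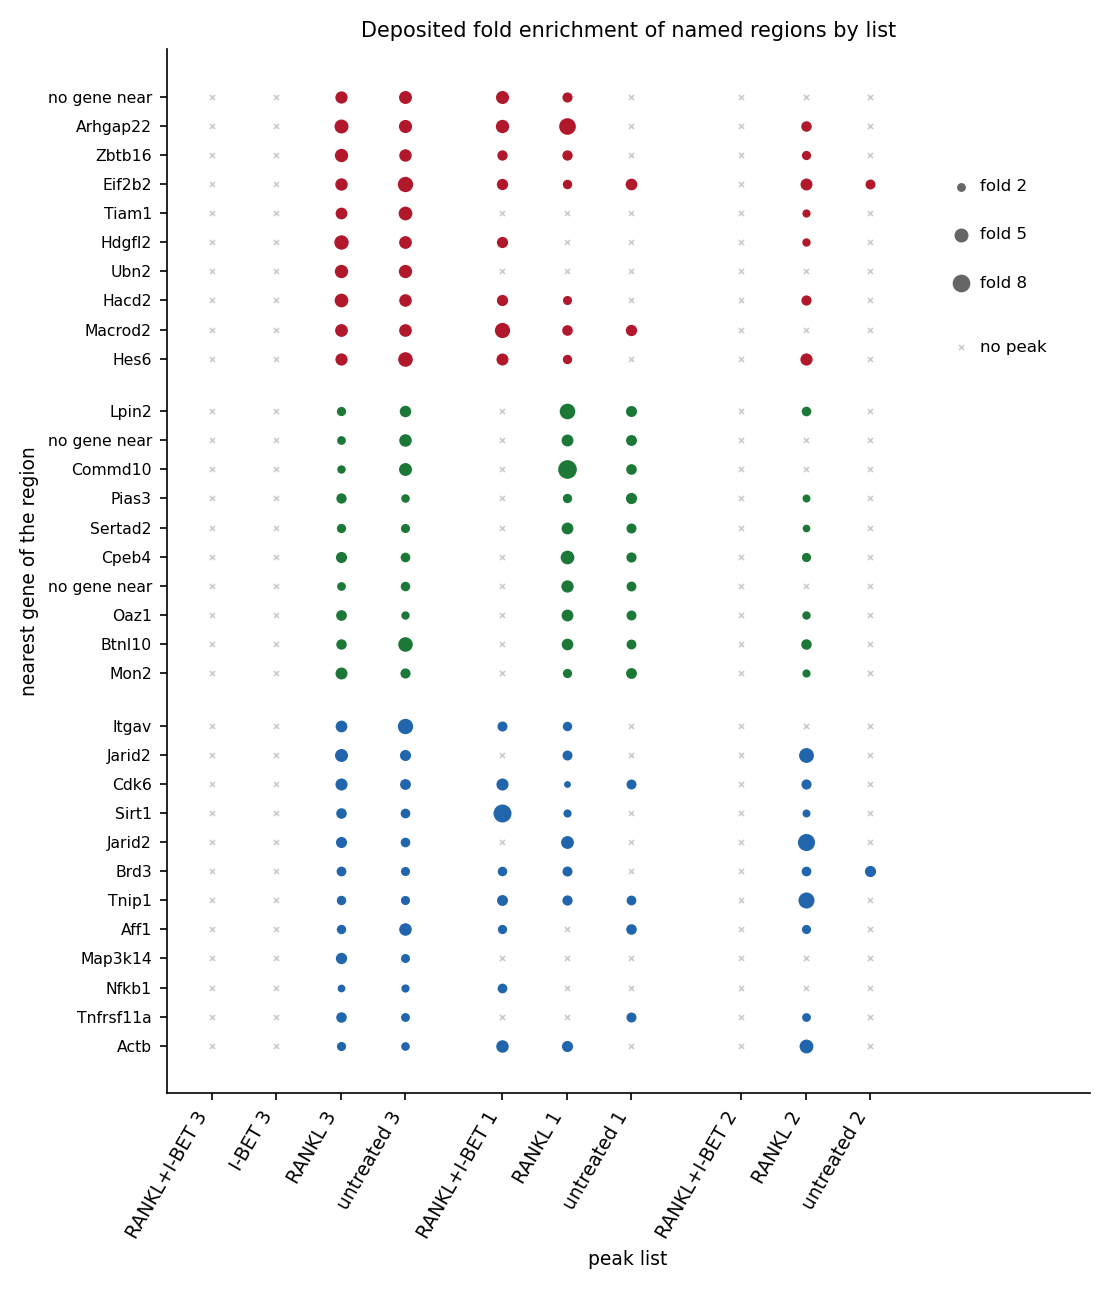
Fold enrichment of named I-BET-absent regions in each of the 10 lists, with dot area proportional to the linear ratio and crosses where a list has no peak, labelled by nearest gene. Red marks the 10 strongest regions, green 10 regions with the same pattern in replicate 1, and blue 12 of the regions nearest to a gene of the lists. The columns of RANKL+I-BET 3 and I-BET 3 are empty and those of RANKL 3 and untreated 3 full because the regions were chosen so, and the green rows are empty in RANKL+I-BET 1 for the same reason.

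Pias3 held the one start-site region among the 10 strongest in replicate 1 of the 21 with the pattern there. It had no peak in any RANKL+I-BET list. Its fold was 2.24 in RANKL 1, 1.62 in RANKL 2 and 2.71 in RANKL 3, and it was 3.23 in untreated 1 and 1.88 in untreated 3, with none in untreated 2. The values in replicates 1 and 3 follow from the choice. In replicate 2, which had no part in it, RANKL 2 held the region and RANKL+I-BET 2 and untreated 2 did not. That was so for 426 of the 679 regions (62.7%) and for 34.2% of all regions, so it does not set Pias3 apart.

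Among the other regions of that kind, Lpin2, which encodes a phosphatidate phosphatase, had a region deep inside the gene with a fold of 6.23 in RANKL 1 and 3.11 in untreated 1. Oaz1, which encodes the antizyme that restrains polyamine synthesis, had one 1676 bp from the gene, with 3.59 in RANKL 1 and 2.53 in untreated 1. Cpeb4, which encodes a binder of polyadenylation elements, lay 73097 bp from its region, with 4.81 and 2.66. Sertad2, Btnl10, Mon2 and Commd10 were nearest to 4 more, and 2 others of the 10 had no gene within 100 kb. All 10 were absent from RANKL+I-BET 2 and from untreated 2.

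The 5 widest regions ran from 1660 to 1855 bp. The region over the ends of Acbd4 and Plcd3, chr11:103101550-103103363, was 1814 bp wide, with folds of 1.89 in RANKL 3 and 3.75 in untreated 3. Its covered length outside replicate 3 was 306 bp in RANKL+I-BET 1 and 0 in RANKL+I-BET 2, 1603 in RANKL 1 and 1814 in RANKL 2, and 501 in untreated 1 and 921 in untreated 2. The log2 difference in covered length over replicates 1 and 2 was -2.03 ± 0.76 (SE), among the 14 at the unadjusted threshold, with a limma adjusted p of 1. Acbd4 encodes an acyl-CoA binding protein and Plcd3 a phospholipase C. A region of 1721 bp lay inside Smurf1, which encodes a ubiquitin ligase of BMP signalling, and RANKL 2 alone held it elsewhere. A region of 1787 bp lay 44667 bp from Egr2, which encodes a zinc finger factor of myeloid cells. Another 2, of 1855 and 1660 bp, had no gene within 100 kb.

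The 651 regions with a gene within 100 kb had 618 nearest genes, or 6.81% of the 9075 genes nearest to any consensus region. Of the 618, 590 had 1 region, 25 had 2 and 3 had more. A region held by all 4 lists had the same nearest gene for 285 of them and for the other 333 it did not. Lpp, which encodes a LIM protein of focal adhesions, had 5 regions, of which 4 lay inside the gene. None of the 5 had a peak in any list of replicate 1. Lpp was also nearest to 14 regions held by all 4 lists. Slc38a9, the lysosomal arginine sensor of mTORC1, had 3 I-BET-absent regions and 2 held by all 4 lists. Srgap3, a GTPase-activating protein, had 3 of each kind, and 2 of its I-BET-absent ones lay under the same untreated peak.

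Genes of 10 lists for this cell system were counted by their nearest region. Of 26 genes of macrophage identity nearest to any region, 0 were nearest to an I-BET-absent one, against the 6.81% of all genes. The counts were 0 of 24 for the MYC network and ribosome biogenesis, 0 of 15 for inflammatory cytokines and chemokines, 1 of 26 for the interferon response, 1 of 26 for the cell cycle and 1 of 18 for housekeeping genes. They were 2 of 27 for osteoclast formation and function, 3 of 25 for the NF-kB pathway, 2 of 22 for BET proteins and elongation factors and 2 of 21 for enzymes of H3K27. Lists of other cell types had 1, 2 and 0 genes nearest to any region and none nearest to an I-BET-absent one. With so few genes per list, these counts describe the lists and set none of them apart.

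Among osteoclast genes, Tnfrsf11a, which encodes RANK, had a region inside the gene at chr1:105814811-105815287. Its fold was 2.83 in RANKL 3 and 2.03 in untreated 3. Outside replicate 3 it was held by RANKL 2, at 1.97, and untreated 1, at 2.57, and by no other list. Itgav, which encodes the alpha V integrin chain of the osteoclast vitronectin receptor, lay 16048 bp from a region with 3.54 in RANKL 3 and 6.01 in untreated 3. RANKL+I-BET 1 and RANKL 1 held it, at 2.59 and 2.27. The RANK gene also lay nearest to a region of the reverse pattern.

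Among NF-kB genes, Nfkb1 encodes the p105 precursor of p50, Map3k14 the kinase NIK of the non-canonical pathway, and Tnip1 a partner of the inhibitor A20. The Nfkb1 region lay inside the gene, with 1.54 in RANKL 3 and 1.73 in untreated 3, and elsewhere only RANKL+I-BET 1 held it, at 2.43. The Map3k14 region was 134 bp wide, and no list of replicates 1 and 2 held it. The Tnip1 region was held by RANKL+I-BET 1 at 3.06, RANKL 1 at 2.68, RANKL 2 at 6.58 and untreated 1 at 2.45. It lay only 10 bp from a RANKL+I-BET 3 peak and 403 bp from an I-BET 3 peak.

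Among chromatin genes, Brd3 encodes a BET protein, itself a target of I-BET. Its region lay inside the gene, with 2.45 in RANKL 3 and 2.13 in untreated 3, and with 2.33 in RANKL+I-BET 1 and 2.56 in RANKL 1. Aff1, a scaffold of the super elongation complex, had a region inside the gene that RANKL+I-BET 1 held at 2.18 and untreated 1 at 2.87. Sirt1, a deacetylase, had a region starting 45 bp past its start site, with 2.86 in RANKL 3 and 2.41 in untreated 3, and with 8.27 in RANKL+I-BET 1 and 1.72 in RANKL 1. Jarid2, a partner of the H3K27 methyltransferase PRC2, had regions 70342 and 57053 bp from the gene that RANKL+I-BET 1 and 2 lacked. Their folds were 2.55 and 4.23 in RANKL 1 and 5.64 and 7.49 in RANKL 2, with none in untreated 1 and 2. Cdk6, a kinase of G1 phase, and Actb, cytoplasmic actin, were the cell cycle and housekeeping genes, and RANKL+I-BET 1 held both regions. The Cdk6 region lay inside the gene, and the other lay 23897 bp from Actb.

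At the edge of the choice, the 3 weakest regions by -log10 p lay nearest to Mdm1, Tomm20 and Ccn4. That of Ccn4 was 2 bp wide, with a fold of 1.01 in RANKL 3 and 2.10 in untreated 3. Just outside it lay regions at Xrcc5, Zranb3 and Cxxc5, where the I-BET list covered 49, 73 and 64 bp and the RANKL+I-BET list 0. Of the reverse pattern, the 5 strongest lay nearest to Inka2, Fnbp1l, Chd9, Pde4b and Atxn1, and 4 of these were inside the gene. That of Inka2 had folds of 5.40 in RANKL+I-BET 3 and 4.38 in I-BET 3, and outside replicate 3 it was held by RANKL+I-BET 1, RANKL 1, RANKL 2 and untreated 1.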

How the data were processed

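Per the labels' protocols, cells were fixed with 1% formaldehyde for 15 min and sequenced as single reads of 50 bp. The submitters' processing notes name FastQC, Bowtie2 and MACS2 and the build mm10 (GRCm38). Versions, settings and the use of inputs are not given in the sources used here. Each deposited list holds the broad peaks of 1 library. The deposited score is 10 times the -log10 q. The deposited fold is a linear ratio over local background, and the deposited p-value and q-value of a peak are given as -log10. These are the authors' values and describe peaks within a list only. Without counts, no depth or counting interval can be given.

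Genes were 21900 protein-coding genes and 32851 start sites of RefSeq GRCm38.p6. The start sites used hold none on chromosome 18. Covered length was compared as log2(bp + 200) in regions covered in at least 2 of 6 lists with limma 3.58.1 (trended prior, Benjamini-Hochberg adjustment, R 4.3.3). Its p-values reflect the spread between libraries, which the labels do not show to be separate cultures. Intervals were handled with Python 3.11.15, pandas 2.3.3 and NumPy 2.4.6, and the code was tested on simulated data. The values simulated for limma had a smaller spread than the lists, so they do not show what 6 lists could detect. Regions were named by strength, width, the same pattern in replicate 1, 13 gene lists and the edges of the choice. The regions, lists and rule were chosen with earlier results of these data known. One region that this rule names is not reported here.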

Additional observations from a re-analysis of the deposited data

How the results depend on the processing

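The count of I-BET-absent regions stayed within 1.5 times of 679 under the 6 other ways of building or filtering regions, but at a -log10 q of at least 5 it was 684 of 3185, so the share was 21.5%. It was 1273 without I-BET replicate 3 and 1782 without RANKL+I-BET replicate 3, since fewer lists then had to lack the region. The reverse count of 162 was 247 when peaks had to cover 50% of a region, 256 at a -log10 q of at least 5 and 340 at one covered length per replicate number. Leaving out a list of RANKL or untreated cells in replicate 3 gave 262 to 846. Leaving out a list that a pattern needs gives no value, for either pattern. The 21 regions with the pattern in replicate 1 were 3 at a -log10 q of at least 5 (0.439%, against 0.816% of all regions) and 39 at one covered length (7.51%, against 14.2%), so the excess over all regions turned round in both. When peaks had to cover 50% of a region, shares held were 54.8% in RANKL+I-BET 1, 56.7% in RANKL 1, 23.0% in untreated 1, 3.41% in RANKL+I-BET 2, 76.7% in RANKL 2 and 11.8% in untreated 2. Over all regions those shares were 83.8%, 81.9%, 47.5%, 7.45%, 82.3% and 23.8%. At a -log10 q of at least 5 the shares held were 27.9%, 29.5% and 2.78% in replicate 1. In replicate 2 they were 4.68% in RANKL+I-BET 2, 38.9% in RANKL 2 and 1.32% in untreated 2. Over all regions they were 31.5%, 33.4% and 3.30% in replicate 1, and 5.78%, 35.4% and 1.70% in replicate 2. The gap to all regions was thus small at that setting and turned round in RANKL 2. At one covered length per replicate number, added after seeing the data, they were 41.4% in RANKL+I-BET 1, 38.2% in RANKL 1, 38.5% in untreated 1, 6.94% in RANKL+I-BET 2, 1.35% in RANKL 2 and 7.51% in untreated 2. Over all regions these were 62.0%, 59.4%, 75.6%, 35.3%, 1.25% and 24.8%. At a -log10 q of at least 5 the median width was 972.5 bp and the gene end share 51.9%, and the share was 45.2% with a window of 2.5 kb. The cause was not tested. Across leave-one-out fits, limma called 0 to 3203 regions, and 0 under every pseudocount, filter and scaling tried. With the replicate number as a block it called 0. Same-numbered lists deviated together with correlations of 0.16 to 0.26, but 2 numbers are too few to show a pairing. The lists carry no counts, so the part of depth in a region being absent from a list was not tested.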
